A study of Mus musculus with 6 samples.

Results

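The C/EBP transcription factors and 4 further regulators of myeloid cells were followed in megakaryocyte-erythroid progenitors, marrow precursors of red cells and platelets. The 9 genes were chosen by name from the 55487 genes counted, with earlier results of these data known. Symbols were assigned through GENCODE M21. They are the family members Cebpa, Cebpb, Cebpd, Cebpe and Cebpg, and Spi1, Irf8, Klf4 and Gfi1. Messenger RNA of the sorted progenitors was sequenced in bulk from wild-type C57BL/6 mice aged 8 weeks, in 3 control libraries and 3 libraries of mice fasted for 6 h. The study's question was the effect of fasting on erythropoiesis. All libraries share strain, genotype and age. The labels give no sort gate, sex, batch or feeding of the controls, their extraction text describes ground tissue, and they do not say whether a library is 1 mouse or a pool. The p-values therefore measure the spread between these libraries, which may be technical. In bulk RNA, fewer cells of a type and less RNA per cell cannot be told apart.

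C/EBP proteins bind DNA in pairs through a basic region and a leucine zipper, and the members can pair with one another. C/EBPα starts the granulocyte and monocyte programme in progenitors together with PU.1, the ETS-family protein that Spi1 encodes, and C/EBPε acts later, on the secondary granules of neutrophils. PU.1 and GATA1, the leading factor of erythroid and megakaryocyte cells, restrain each other, and their relative amounts are often read as a balance between myeloid and erythroid fate.

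Upstream sequences are shown for Cebpa, which passed the test below, for Cebpb, the family member with the fewest counts, and for Gfi1, which held the one motif match. Of the 9 genes, 6 had an entry in the RefSeq promoter table of GRCm38.p6, with 8 entries in all. Each sequence is the 250 bases before a start site, 5′ to 3′ on the strand of the gene, with a motif match in capitals. They lie at chr7:35119043-35119292 on the plus strand (Cebpa), chr2:167688665-167688914 on the plus strand (Cebpb) and chr5:107725806-107726055 on the minus strand (Gfi1). Most of the Gfi1 sequence, with its match, lies inside the gene as annotated in GENCODE M21, which runs from 107716657 to 107726036. It is thus upstream of an internal start site only.
Cebpa: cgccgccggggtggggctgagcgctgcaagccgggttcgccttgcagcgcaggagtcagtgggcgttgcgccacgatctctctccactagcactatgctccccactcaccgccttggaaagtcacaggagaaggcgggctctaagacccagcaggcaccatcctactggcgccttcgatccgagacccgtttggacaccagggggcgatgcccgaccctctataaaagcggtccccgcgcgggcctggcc
Cebpb: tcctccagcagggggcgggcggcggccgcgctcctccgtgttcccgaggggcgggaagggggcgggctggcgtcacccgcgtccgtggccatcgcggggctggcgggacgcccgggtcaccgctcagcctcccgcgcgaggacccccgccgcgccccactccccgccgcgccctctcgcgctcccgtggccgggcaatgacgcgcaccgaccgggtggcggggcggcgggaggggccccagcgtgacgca
Gfi1: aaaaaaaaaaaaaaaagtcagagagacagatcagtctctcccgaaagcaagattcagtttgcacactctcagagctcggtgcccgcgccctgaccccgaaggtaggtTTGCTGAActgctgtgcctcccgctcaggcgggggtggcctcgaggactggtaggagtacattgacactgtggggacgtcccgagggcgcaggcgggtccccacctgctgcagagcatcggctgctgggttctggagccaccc
Motifs were searched on both strands as TTGCNNAA for C/EBP, GAGGAA for PU.1 and AGATAA for GATA factors, which do not overlap one another here. These letters stood in 9.56%, 23.3% and 9.99% of 32851 promoter windows of that length. The 8 entries held 1 C/EBP match, in the Gfi1 sequence shown, 0 PU.1 matches and 0 GATA matches. GC content was 66.4% for the Cebpa sequence, 81.6% for the Cebpb sequence and 59.2% for the Gfi1 sequence, beside a median of 52.4% over all windows.

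Totals ran from 22445970 to 30246110 counts in control libraries and from 12797144 to 18225191 in fasted ones. Counts on 1464 odorant and vomeronasal receptor genes, which blood cells have no use for, gave a background rate per kilobase. Carried over all exons, it amounted to 6.35% ± 2.35 of control and 13.1% ± 1.54 of fasted counts (SD, n = 3). Levels below are CPM, counts scaled to library size after TMM scaling over the 36508 tested genes, and triplets give libraries 1, 2 and 3 in order. On this scale the median log2 fold change, fasted over control, was 0.32 over all tested genes and -0.50 over the 10641 well-expressed genes, those with a mean of at least 5 times the background. A fit of the well-expressed genes alone, called the restricted fit, had a median of 0.021, and its values for genes in it are given beside those of the fit over all tested genes. Control library 1 stood apart in immediate early genes, with 210.1 CPM of Egr1 and 5.70 CPM of Nr4a1, while the lowest of the other 5 libraries had 914 and 286.

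The cell label was checked against markers. Kit encodes the stem cell factor receptor, by which such progenitors are usually sorted. It had 847, 418 and 347 CPM in controls against 261, 321 and 304 CPM after fasting. Car1, a carbonic anhydrase gene of the erythroid lineage, had 2115, 2252 and 1084 CPM in controls against 1386, 1758 and 2012 CPM after fasting. Genes of granulocyte-monocyte progenitors were present too. Their 8 markers summed to 4297, 11759 and 16409 CPM in controls and to 2893, 1862 and 606 CPM after fasting, and 0 of them had a mean below the background. Fcgr3, the Fc receptor gene usually gated against in this sort, had 24.2, 91.7 and 117 CPM in controls against 16.9, 11.3 and 11.9 CPM after fasting. The granulocyte-monocyte progenitor sum and Fcgr3 moved the same way as Cebpa, Cebpe and Spi1 below, and their part in those results was not tested.

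Cebpa and Cebpe fell after fasting, and no gene of the 9 rose. Of the 9 genes, 8 passed the filter on low counts and 7 were well expressed, and the 2 calls had an adjusted p under 0.05 (edgeR's quasi-likelihood test, Benjamini-Hochberg adjustment over all tested genes). The same test passed 4.97% of all tested genes, 3.82% as lower and 1.15% as higher, and 12.9% of the well-expressed genes as lower. The restricted fit passed 0 of the 7 and 0.0% of all its genes, though 2111 of those had an unadjusted p under 0.05, Cebpe and Klf4 among them. DESeq2 passed 3, Cebpa, Cebpe and Spi1, all lower, beside 16.8% of its genes in either direction, 15.5% as lower and 1.28% as higher. RLE factors passed 2 (beside 8.14% of all genes, 7.32% lower and 0.824% higher), and library totals passed 0 (beside 12.6%, 0.797% lower and 11.8% higher). Leaving out 1 library, edgeR passed 4 of the 9 genes without control library 1 (beside 2.24% of all genes as lower), 0 without control library 2 (0.398%) and 1 without control library 3 (10.3%). It passed 1 without fasted library 1 (0.242%), 1 without fasted library 2 (4.27%) and 0 without fasted library 3 (0.0183%).

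All fasted values lay below all control values for 4 genes (Cebpa, Cebpe, Cebpg and Spi1) and above them for 0. Groups were as separate for 34.9% of all tested genes, 15.1% below and 19.8% above. Among well-expressed genes it was 51.1%, 47.6% below and 3.55% above, beside 4 of the 7 described here. On the scale of the restricted fit the groups overlapped for each of the 9 genes, where 27.3% of well-expressed genes were separate, 12.9% below and 14.4% above. The median log2 fold change was -0.72 over the 8 tested genes and -0.15 over the 7 in the restricted fit.

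**Figure D1:**
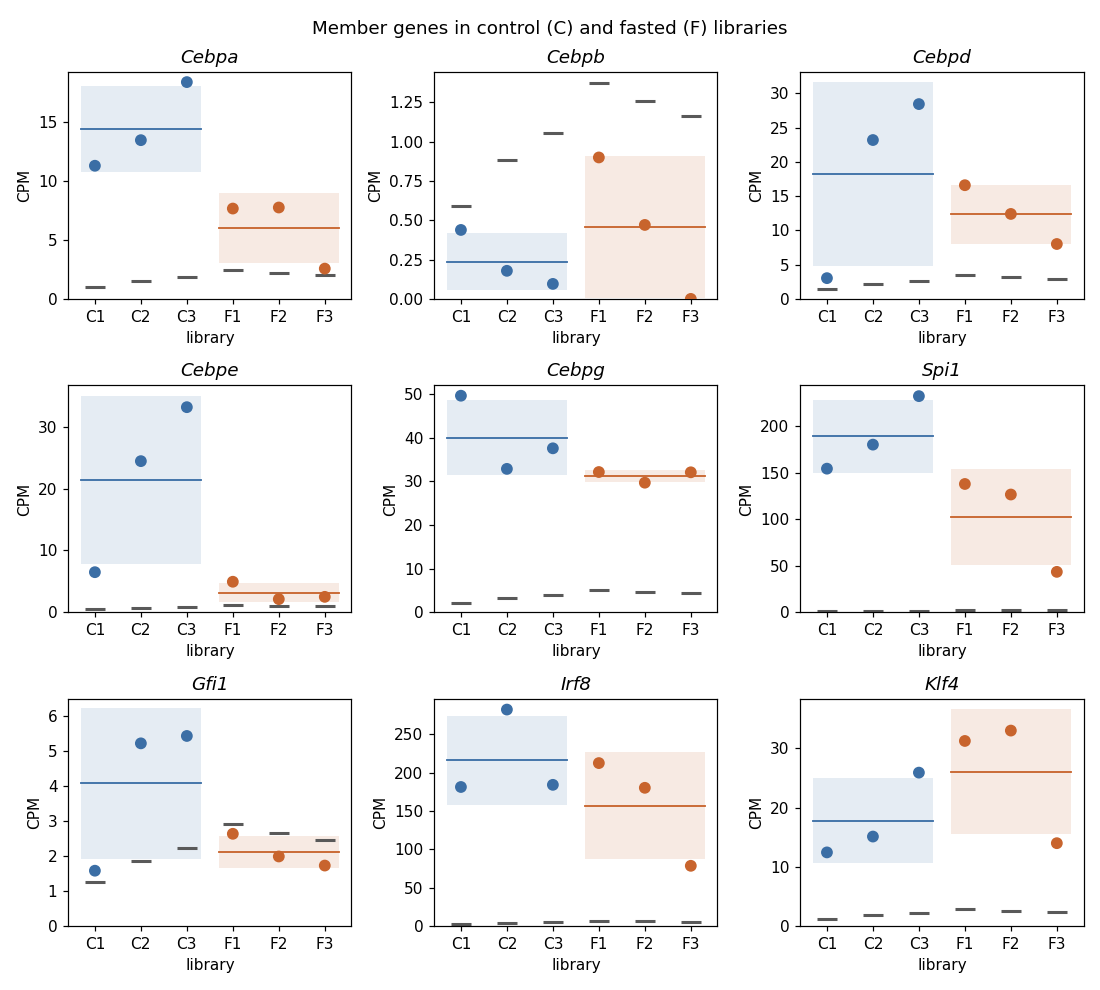
CPM after TMM scaling (vertical axes from 0) of the 9 genes in control libraries C1 to C3 (blue) and fasted libraries F1 to F3 (orange), with the group mean ± SD (n = 3) as line and band and the background for the gene's length as grey dashes. Cebpb lay under the background in all 6 libraries, and Cebpe in C1, at 6.49 CPM, lay close to its highest fasted value of 4.95 CPM.

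Per kilobase of exon the genes spanned a wide range. Spi1 led in controls with a level of 70.2 ± 14.7 CPM per kilobase, followed by Irf8 with 30.6 ± 8.15 and Cebpe with 17.2 ± 10.9 (SD, n = 3). Lower levels per kilobase were 7.12 ± 1.54 for Cebpg, 5.84 ± 2.34 for Klf4, 5.45 ± 1.38 for Cebpa, 4.86 ± 3.58 for Cebpd, 1.28 ± 0.680 for Gfi1 and 0.158 ± 0.119 for Cebpb. Neighbours from Irf8 down to Gfi1 overlapped in their ranges, so only Spi1 and Cebpb stood apart. After fasting the order was Spi1 (38.2 ± 19.1), Irf8 (22.2 ± 9.91), Klf4 (8.55 ± 3.45), Cebpg (5.57 ± 0.248), Cebpd (3.29 ± 1.15), Cebpe (2.58 ± 1.23), Cebpa (2.27 ± 1.12), Gfi1 (0.664 ± 0.147) and Cebpb (0.304 ± 0.299). There Spi1 overlapped Irf8, Klf4 overlapped Cebpg, Cebpd to Cebpa overlapped in turn, and Gfi1 overlapped Cebpb. The background rate was 0.395 to 0.701 CPM per kilobase in controls and 0.775 to 0.915 after fasting.

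Cebpe (ENSMUSG00000052435.7, chromosome 14, 54710360 to 54712174, minus strand, GRCm38 as for all positions here), the factor of late granulocyte maturation, had the largest fold change of the 8 tested genes. Its counts were 148, 547 and 695 in controls and 77, 41 and 48 after fasting. Background alone would give 11.2, 16.3 and 18.2 in controls and 17.7, 19.9 and 18.4 after fasting. Scaled, Cebpe had 6.49, 24.4 and 33.1 CPM in controls against 4.95, 2.14 and 2.51 CPM after fasting. Control libraries 2 and 3 were high, and control library 1 lay just above the fasted values. Fasted over control, log2 fold change was -2.75 with an SE of 0.57 (edgeR adjusted p 0.0408), and -2.31 (SE 0.70, adjusted p 0.167) in the restricted fit. On the latter scale control library 1, at 5.28 CPM, fell inside the fasted range of 2.61 to 6.69 CPM. Leaving out control library 1 gave -3.19 (SE 0.31, edgeR adjusted p 3.46e-07) over all tested genes and -2.77 (adjusted p 0.107) in the restricted fit. The edgeR call was lost without control library 2 (adjusted p 0.0904), fasted library 2 (0.0677) or fasted library 3 (0.188).

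The genes nearest to Cebpe over the 6 libraries, by root mean square difference of log2 CPM centred on each gene's mean, were Fcgr3 at 0.16 and Prss57, a granule protease gene, at 0.20. The median over 8517 named well-expressed genes was 1.29. Prss57 had 30.7, 94.7 and 136 CPM in controls against 26.4, 12.7 and 9.63 CPM after fasting. Against Mpo, the myeloperoxidase gene, the log2 ratio of Cebpe counts per kilobase was -7.47, -6.78 and -6.81 in controls and -7.21, -7.83 and -5.84 after fasting. The groups overlapped, with means of -7.02 ± 0.39 and -6.96 ± 1.02 (SD, n = 3), a ratio that was chosen after its values were seen and has no test.

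Cebpa (ENSMUSG00000034957.10, chromosome 7, 35119293 to 35121928, plus strand) is a single-exon gene for the factor that opens granulocyte and monocyte differentiation. Its counts were 257, 301 and 385 in controls and 119, 148 and 49 after fasting. Scaled, it had 11.3, 13.4 and 18.4 CPM in controls against 7.65, 7.74 and 2.56 CPM after fasting. Every fasted library was below every control library, and fasted library 3 was lowest, its 49 counts standing beside 39.0 expected from background. On the scale of the restricted fit fasted libraries 1 and 2, at 10.3 and 9.44 CPM, exceeded control library 1, at 9.16 CPM. The log2 fold change was -1.26 with an SE of 0.35 (edgeR adjusted p 0.0465), and -0.82 (SE 0.42, adjusted p 0.309) in the restricted fit. The edgeR call was lost without control library 2 (adjusted p 0.0900), control library 3 (0.0659), fasted library 1 (0.105) or fasted library 3 (0.188). Cebpa shares 51 exonic bases with the antisense gene Gm45091, and use of strand in the counting is not given, which holds for the overlaps named below as well.

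Cebpd (ENSMUSG00000071637.5, chromosome 16, 15887286 to 15891031, plus strand), a family member induced in acute inflammation, had the widest relative spread among controls of the 8 tested genes. It had 3.03, 23.2 and 28.4 CPM in controls against 16.6, 12.4 and 8.01 CPM after fasting. Control library 1, the one low in immediate early genes, was below every fasted library, and the other controls were above them; the part of those genes' state in this was not tested. The fold change of -0.56 on the log2 scale (SE 0.83, edgeR adjusted p 0.672) did not pass, nor did -0.15 (SE 0.81, adjusted p 0.934) in the restricted fit. Without control library 1 it was -1.08 (SE 0.27, edgeR adjusted p 0.0260) over all tested genes and -0.67 (SE 0.29, adjusted p 0.290) in the restricted fit. The gene shares 562 exonic bases with Spidr on the other strand.

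Cebpg (ENSMUSG00000056216.9, chromosome 7, 35046422 to 35056573, minus strand), a widely expressed partner of the other members, was the steadiest gene after fasting. It had 49.6, 32.9 and 37.6 CPM in controls against 32.1, 29.7 and 32.1 CPM after fasting. The fasted libraries lay narrowly below the lowest control. Its direction followed the scaling, with a log2 fold change of -0.35 (SE 0.24, edgeR adjusted p 0.317) over all tested genes and 0.18 (SE 0.18, adjusted p 0.596) in the restricted fit.

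Cebpb (ENSMUSG00000056501.3, chromosome 2, 167688915 to 167690418, plus strand), known for granulocyte production in infection, was not detectable above background. It had 10, 4 and 2 counts in controls and 14, 9 and 0 after fasting, where background alone would give 13.5, 19.8 and 22.1 and 21.4, 24.1 and 22.3. All 6 counts lay under the background, and the 0 allows up to 3 counts, for counting error only. The gene did not pass the filter, so it has no fold change here. It is a GC-rich gene, at 67.2%, and of the 108 protein-coding genes at 65% or more, 58.3% had a mean below background, beside 22.5% of the 21100 others. The part of base composition in the Cebpb counts was not tested. Cebpb shares 312 exonic bases with Tmem189 on the other strand.

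Spi1 (ENSMUSG00000002111.8, chromosome 2, 91082390 to 91115756, plus strand) was the most abundant of the 9 genes per kilobase. It had 155, 180.4 and 233 CPM in controls against 138, 127 and 43.6 CPM after fasting. Fasted libraries 1 and 2 were just under control library 1, and fasted library 3 was far lower. The log2 fold change of -0.88 (SE 0.34, edgeR adjusted p 0.113) did not pass, and in the restricted fit it was -0.43 (SE 0.44, adjusted p 0.613). DESeq2 gave -1.07 (SE 0.37) with an adjusted p of 0.0310. On the restricted scale the levels were 126, 171 and 246 CPM in controls and 187, 155 and 62.8 CPM after fasting, and the groups overlapped. Without fasted library 3 the edgeR log2 fold change was -0.54.

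Irf8 (ENSMUSG00000041515.10, chromosome 8, 120736358 to 120756694, plus strand), which directs monocyte and dendritic cell fate, had 181, 282 and 184 CPM in controls against 212, 180.1 and 78.3 CPM after fasting. Fasted library 3 was low, and the other fasted libraries lay in or just under the control range. The fold change on the log2 scale, -0.46 (SE 0.30; edgeR, adjusted p 0.314), did not pass, nor did 0.023 (SE 0.36, adjusted p 0.978) in the restricted fit. Nearest to it were Phf11b (0.14) and Cst3, the cystatin C gene (0.18), beside a median of 0.52.

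Klf4 (ENSMUSG00000003032.8, chromosome 4, 55527143 to 55532466, minus strand), a zinc-finger factor of monocytes, was the one tested gene with a fold change above 0 under TMM scaling over all genes. It had 12.4, 15.1 and 25.9 CPM in controls against 31.2, 33.0 and 13.97 CPM after fasting. Fasted libraries 1 and 2 exceeded every control, and fasted library 3 lay between control libraries 1 and 2. The log2 fold change was 0.55 with an SE of 0.33 (edgeR adjusted p 0.262), and 0.99 (SE 0.41, adjusted p 0.239) in the restricted fit. It was above 0 in all 20 alternative fits, between 0.27 and 1.47, and passed in none. Control library 1, low in immediate early genes and in mature neutrophil genes, was also the lowest for Klf4, and their part in this was not tested.

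Gfi1 (ENSMUSG00000029275.18, chromosome 5, 107716657 to 107726036, minus strand), a repressor that favours granulocyte over monocyte genes, stood well above background in control libraries 2 and 3. It had 36, 117 and 114 counts in controls and 41, 38 and 33 after fasting, beside 28.7, 41.9 and 46.8 and 45.3, 51.0 and 47.2 expected from background. The fasted counts and control library 1 were thus near or below it. The log2 fold change was -0.95 with an SE of 0.44 (edgeR adjusted p 0.158), and -1.35 (SE 0.38, edgeR adjusted p 0.0424) without control library 1. Gfi1 was not in the restricted fit, and it shares 101 exonic bases with A430072P03Rik on the other strand.

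**Figure D2:**
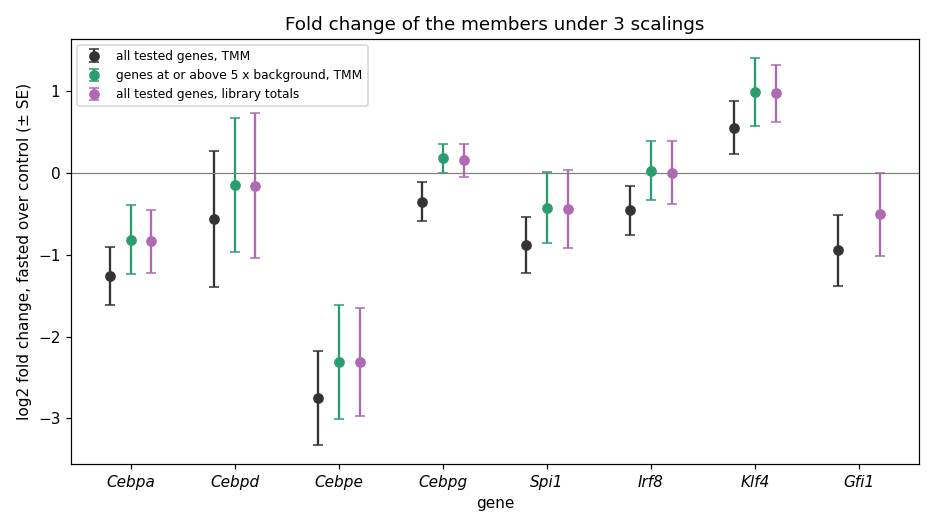
Log2 fold change, fasted over control (vertical axis, points ± SE), of the 8 tested genes with TMM scaling over all tested genes, TMM scaling in the restricted fit, and library totals. Cebpe lay furthest below 0 and Klf4 above 0 under each, Cebpg and Irf8 changed sign, and Gfi1 was not in the restricted fit.

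Cebpa and Spi1 ran closely together across libraries, with a root mean square difference of 0.16 in centred log2 CPM, beside medians of 0.69 between Cebpa and the named well-expressed genes and 0.65 for Spi1. Nearest to Cebpa were Ms4a6c (0.058) and Emb (0.088), and nearest to Spi1 were Limd2 (0.063) and Ccl9, a chemokine gene of myeloid cells (0.074). Cebpe was further away, at 1.00 from Spi1 and 0.89 from Cebpa. In control library 1 the centred values were -1.87 for Cebpd, -0.65 for Gfi1 and -0.69 for Klf4, but 0.34 for Cebpa and 0.24 for Spi1. These patterns describe 6 libraries that share depth and background, and were not tested.

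**Figure D3:**
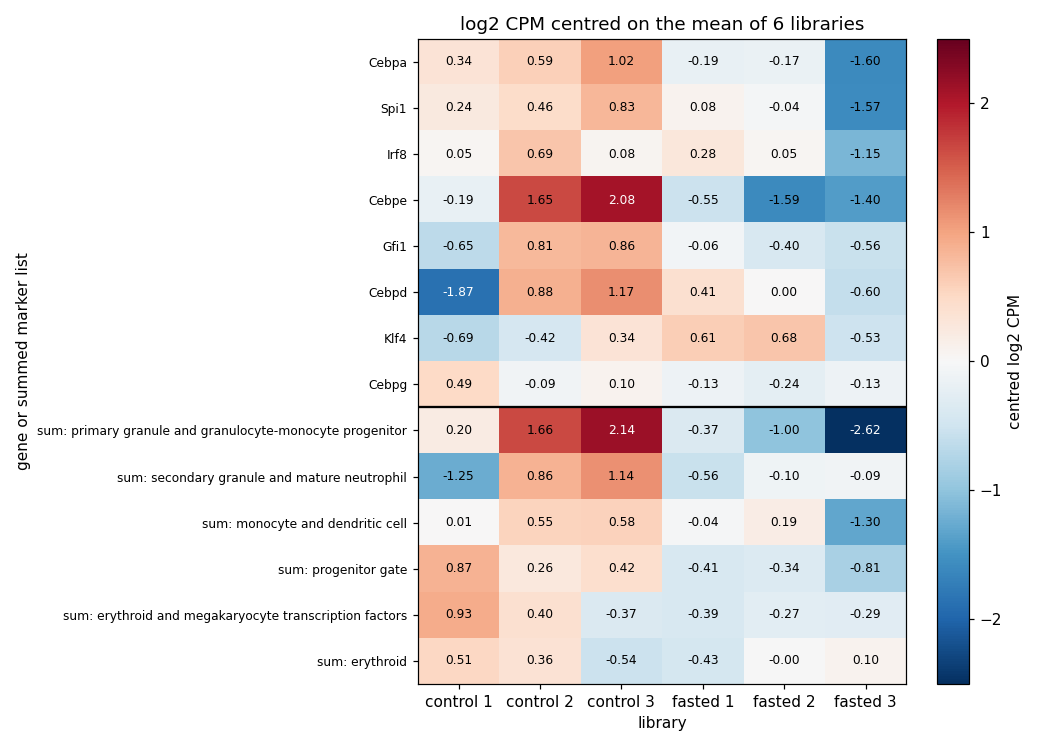
Log2 CPM of 8 genes and of the summed CPM of 6 marker lists (vertical axis) in each library (horizontal axis), centred on the mean of the 6 libraries, with red above and blue below it. Cebpe (1.65 and 2.08) and the primary granule sum (1.66 and 2.14) were highest in control libraries 2 and 3, and Cebpa (-1.60) and Spi1 (-1.57) were lowest in fasted library 3.

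Ratios within a library do not depend on scaling between libraries, and that of Spi1 to Gata1 did not separate the groups. From counts per kilobase, its log2 value was -1.78, -0.91 and 0.49 in controls and -0.39, -0.70 and -2.31 after fasting. The means were -0.73 ± 1.146 and -1.13 ± 1.03 (SD, n = 3), and the difference of -0.40 had p = 0.7 by a two-sided exact permutation test. For Cebpa to Gata1 the log2 ratio was -5.52, -4.62 and -3.14 in controls and -4.53, -4.70 and -6.37 after fasting, and the difference of -0.77 had p = 0.5 by the same exact test. Adjusted over these comparisons, both had p = 0.7 (exact permutation tests, Benjamini-Hochberg), and 3 against 3 libraries cannot go below 0.1. Gata1 itself had 479.7, 306 and 149 CPM in controls against 163, 186 and 196 CPM after fasting, and its control libraries spanned the fasted values. Without control library 3 the Spi1 to Gata1 difference was 0.21, and without fasted library 3 it was 0.19. Relative to Gata1 the groups overlapped for each of the 7 well-expressed genes described here, while 0.348% of all well-expressed genes were separate and lower and 5.64% separate and higher.

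Ratios among the myeloid factors were tighter; they were chosen after their values were seen and have no test. The log2 ratio of Klf4 to Spi1 was -3.82, -3.76 and -3.35 in controls and -2.32, -2.12 and -1.82 after fasting. Its means were -3.64 ± 0.26 and -2.09 ± 0.25 (SD, n = 3), a 2.93-fold difference in the ratio. The difference was 1.55 on the log2 scale, where the median over the other well-expressed genes was 0.54. The groups did not overlap, as for 15.9% of the other well-expressed genes in that direction, and 736 of 10640 had a larger difference. The log2 ratio of Cebpa to Spi1 was -3.75, -3.71 and -3.63 in controls and -4.14, -4.002 and -4.06 after fasting, a difference of -0.37. All fasted libraries were lower here, as for 0.254% of well-expressed genes. With the background taken off, the Cebpa difference was -1.29, with a fasted SD of 0.998, and the Klf4 difference was 1.56. Irf8 to Spi1 differed by 0.48, under that median, and its groups overlapped.

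**Figure D4:**
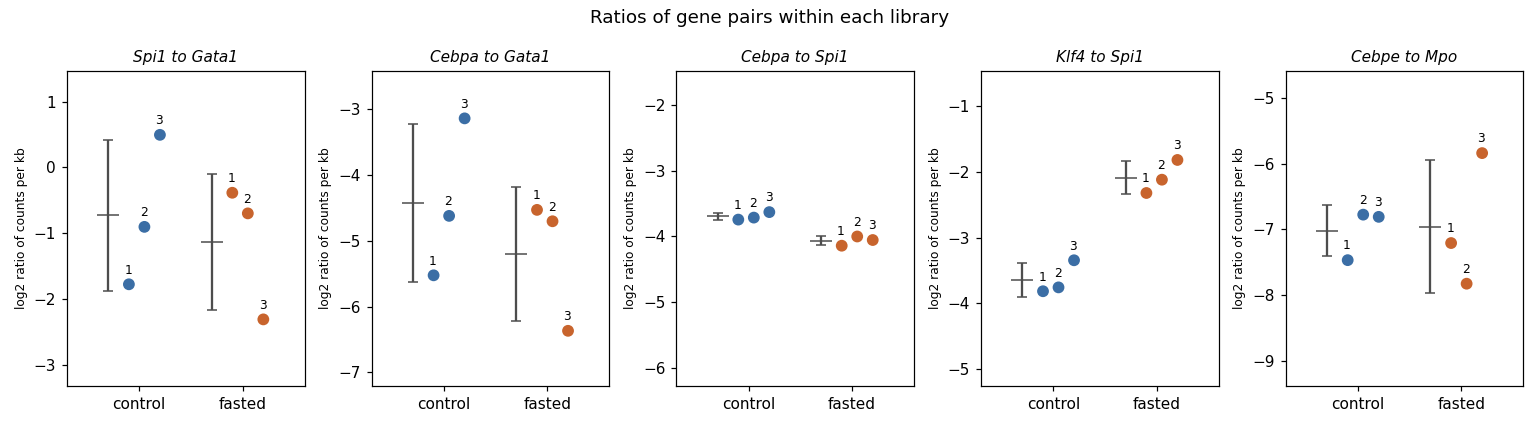
Log2 ratios of counts per kilobase for 5 gene pairs (vertical axes, all of equal span) in control (blue) and fasted (orange) libraries, numbered by replicate, with the group mean ± SD (n = 3) at the left of each group. The groups overlapped for Spi1 to Gata1, Cebpa to Gata1 and Cebpe to Mpo, and were apart for Cebpa to Spi1 and Klf4 to Spi1.

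Cytokine receptors, many of them known targets of these factors, were read next, with each list's calls set beside the 12.9% of well-expressed and 3.82% of all tested genes that fell. Of 8 myeloid cytokine receptor genes, 3 fell (Csf3r, Csf2ra and Csf2rb) and 0 rose, with a median of -0.57. Over the 5 well-expressed genes of the list the median was -1.10, and -0.64 in the restricted fit. Csf3r, the granulocyte colony-stimulating factor receptor gene, had 122, 103 and 129 CPM in controls against 55.9, 49.3 and 24.3 CPM after fasting. Every fasted value was below every control value. Its log2 fold change was -1.45 with an SE of 0.27 (edgeR adjusted p 0.0189), and -0.97 (adjusted p 0.151) in the restricted fit. Csf2ra, which encodes a receptor chain for granulocyte-macrophage colony-stimulating factor, had -1.10 (SE 0.27, edgeR adjusted p 0.0349) and -0.64 (SE 0.29, adjusted p 0.267) in the restricted fit. Csf1r, the macrophage growth factor receptor gene, had -0.69 (SE 0.30, edgeR adjusted p 0.142) and -0.24 (SE 0.38, adjusted p 0.747) in the restricted fit.

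Primary granule genes had the lowest median of the lists. Of the 8 primary granule and granulocyte-monocyte progenitor genes, 1 fell (Cst7, a cystatin gene, log2 fold change -1.76, SE 0.32, edgeR adjusted p 0.0237, and -1.31, adjusted p 0.173, in the restricted fit), with a median of -2.48. In the restricted fit the median was -2.06, 8 of 8 had values below 0 and 0 passed. Mpo had 3176, 7395 and 10269.6 CPM in controls against 2022, 1344 and 398 CPM after fasting, with log2 fold changes of -2.47 (SE 0.76, edgeR adjusted p 0.120) and -2.05 (SE 0.77, adjusted p 0.238) in the restricted fit. Elane, the neutrophil elastase gene, had 218, 1915 and 2489 CPM in controls against 231, 81.1 and 39.1 CPM after fasting (log2 fold change -3.72, SE 1.28, edgeR adjusted p 0.157, and -3.31, adjusted p 0.227, in the restricted fit), and control library 1 fell inside its fasted range. Of 13 secondary granule and mature neutrophil genes, 2 fell (Padi4 and Retnlg), a share near that of all well-expressed genes, with medians of -0.74 and, in the restricted fit, -0.35. They summed to 440.5, 1896 and 2297 CPM in controls and 709, 975 and 979 CPM after fasting, so the groups overlapped.

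Of 20 monocyte and dendritic cell genes, 0 rose, and Lyz2, Cx3cr1 and Ccr2 were among those that fell, with a median of -0.84, and -0.41 over the 15 in the restricted fit. Lyz2, the lysozyme gene, had 269, 402 and 402 CPM in controls against 205, 202 and 144 CPM after fasting (log2 fold change -0.96, SE 0.24, edgeR adjusted p 0.0370, and -0.49, adjusted p 0.287, in the restricted fit). Of 32 other myeloid transcription factors, 3 fell (Myb, Stat3 and Meis1) and 1 rose (Bcl6), with a median of 0.23. Over the 25 well-expressed genes of this list the median was -0.11, and 0.27 in the restricted fit. Bcl6, a repressor best known from B cells, had a mean of only 2.47 times the background (edgeR adjusted p 0.0367). Runx1, the core-binding factor of blood progenitors, had -0.76 (SE 0.24, edgeR adjusted p 0.0578) and -0.26 (SE 0.17, adjusted p 0.414) in the restricted fit. Myb had -0.88 (SE 0.23, edgeR adjusted p 0.0408) and -0.34 (SE 0.13, adjusted p 0.209) in the restricted fit. Irf4, the closest relative of Irf8, lay at 1.48 times the background with 0.64 (SE 0.46, edgeR adjusted p 0.356).

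Of 12 partners and regulators of C/EBP proteins, 1 fell, Calr, and 0 rose, with medians of -0.23 and, in the restricted fit, 0.25. Calr encodes calreticulin, which can hold back translation of C/EBP RNA, and had 1072, 1421 and 1589 CPM in controls against 718, 747 and 470.5 CPM after fasting (log2 fold change -1.08, SE 0.24, edgeR adjusted p 0.0326, and -0.61, adjusted p 0.220, in the restricted fit). Ddit3, the gene of the C/EBP relative CHOP, had -0.094 (SE 0.28, edgeR adjusted p 0.837) and 0.34 (SE 0.36, adjusted p 0.619) in the restricted fit, so its direction turned with the scaling. Of 7 co-repressors through which GFI1 acts, 0 passed, with medians of -0.26 and, in the restricted fit, 0.19. The histone deacetylase gene Hdac1 had -0.70 (SE 0.23, edgeR adjusted p 0.0664) and -0.17 (SE 0.12, adjusted p 0.444) in the restricted fit. Gfi1b, the erythroid and megakaryocyte relative of Gfi1, had 503, 331 and 104 CPM in controls against 157, 192 and 226 CPM after fasting (log2 fold change -0.71, edgeR adjusted p 0.359, and -0.11, adjusted p 0.914, in the restricted fit), and its groups overlapped.

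Factors of the erythroid and megakaryocyte lineages were read beside the myeloid ones. Of 14 such genes, 3 fell (Lyl1, Nfe2 and Fli1) and 0 rose, with a median of -0.56. Over the 12 well-expressed genes among them the median was -0.67, and -0.078 in the restricted fit. Fli1, an ETS factor of megakaryocytes, had 153, 106 and 116 CPM in controls against 61.4, 56.1 and 29.8 CPM after fasting (log2 fold change -1.35, SE 0.27, edgeR adjusted p 0.0248, and -0.84, adjusted p 0.148, in the restricted fit). Gata2, a progenitor factor, had -0.84 (SE 0.30, edgeR adjusted p 0.0850) and -0.30 (SE 0.25, adjusted p 0.518) in the restricted fit. Of the 8 mast cell, basophil and eosinophil genes, 3 fell (Mcpt8, Cpa3 and Ms4a2), with a median of -0.88. Over the 6 well-expressed genes of that list the median was -1.12, and -0.63 in the restricted fit. Of the 5 genes of the progenitor gate, 3 fell (Cd34, Fcgr3 and Fcgr2b), and Cd34 had 566, 409 and 551 CPM in controls against 298, 282 and 120.2 CPM after fasting. B cell markers summed to 102 to 168 CPM in controls and 87.0 to 226 CPM after fasting, T and NK cell markers to 37.8 to 46.5 CPM in controls and 50.3 to 56.9 CPM after fasting, erythroid markers to 4355 to 8998 CPM in controls and 4686 to 6757 CPM after fasting, and megakaryocyte markers to 504 to 776 CPM in controls and 206 to 387 CPM after fasting. Of the 8 T and NK cell genes only 1, Lck, was well expressed. Lck stood at 27.9, 17.2 and 17.4 CPM in control libraries and at 22.8, 17.2 and 13.9 CPM in fasted ones, so its groups overlapped. The background rate was also higher in every fasted library than in every control, and its part in the T and NK cell sum was not tested. Among the 9 B cell, 8 T and NK cell and 12 erythroid genes 0 passed with edgeR, and in the restricted fit 0 passed in any list.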

How the data were processed

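Counts per gene came from 3 control and 3 fasted libraries. The authors deposited raw counts with exonic gene lengths, and the submitters' processing notes name HISAT2 2.2.1, featureCounts 2.0.1 and GRCm38. The annotation release, strand setting and read filters are not given in the sources used here. Of 55487 identifiers, 54435 matched GENCODE M21 with their version, all with the same exon length. Totals ran from 12797144 to 30246110 counts per library.

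Genes kept by filterByExpr were scaled by TMM and tested with edgeR 4.0.16 in R 4.3.3 (estimateDisp, glmQLFit with robust settings, group as the only term), with Benjamini-Hochberg adjustment and calls at an adjusted p under 0.05. SE is the fold change divided by the square root of F. Background was the summed counts over summed kilobases of 1464 protein-coding receptor genes, and genes with a mean of at least 5 times it over all libraries were refitted alone. Likeness used log2 of CPM plus 0.5. Ratios were tested with scipy 1.17.1. The tests were tried on simulated counts. The members and lists were chosen with earlier results of these data known.

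Beyond the 9 genes and a few fixed by name, a rule picked a pair of genes, or the only gene that met it, from each list. It took the well-expressed called genes with the largest change and separate groups (else the most abundant pair). A further rule picked the pair of genes nearest to each of Cebpa, Cebpe, Spi1 and Irf8. Of the genes so picked, Hdac3, Car2, Pf4, Cd9, Cd79b, Vpreb1 and Cd3e are not described in the text. Other genes named as calls, and Egr1 and Nr4a1, were chosen after their values were seen. The full set of calls in the monocyte list is not reported here. Alternatives were RLE factors, library totals, TMM factors from well-expressed genes, no filter, the restricted fit, background subtraction, DESeq2 1.42.0, the replicate number as a block and leaving out each library.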

Additional observations from a re-analysis of the deposited data

How the results depend on the processing

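Calls over all genes numbered 1813 (420 higher, 1393 lower). They were 2973 (301 higher, 2672 lower) with RLE factors, 4587 (4296 higher, 291 lower) with library totals, 5244 (4988 higher, 256 lower) with TMM factors from well-expressed genes, 2849 (631 higher, 2218 lower) without a filter, 5267 (402 higher, 4865 lower) with DESeq2, 0 in the restricted fit, 0 after background subtraction, and 7 to 5379 with 1 library left out. Library totals moved the median log2 fold change of all genes from 0.32 to 0.81. Of the 9 genes 2 passed, but 0 did with library totals, with TMM factors from well-expressed genes, in the restricted fit and after background subtraction, and 0 to 4 with 1 library left out. As a replicate block, the numbers gave 146 (14 higher, 132 lower) over all genes and 0 of the 9 genes, and left the Spi1 to Gata1 and Cebpa to Gata1 differences at -0.40 and -0.77. Same-numbered libraries correlated at -0.17, 0.14 and -0.31 in their deviations from the group means, and differently numbered ones at -0.14 to 0.31. Deviations from a mean of 3 libraries depend on each other, so these values cannot decide whether the numbers pair libraries.

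Cebpa, Cebpe and Spi1 stayed below 0 and Klf4 above 0 in all 20 alternatives. Gfi1 stayed below 0 in its 12, which leave out the restricted fits and background subtraction. Cebpa lay between -1.57 and -0.48 and passed in 5 of 20, and Cebpe between -3.20 and -1.75 and passed in 6 of 20. Cebpg turned to 0.15 with library totals, 0.18 with factors from well-expressed genes, 0.18 in the restricted fit and 0.15 after background subtraction, and Irf8 to 0.0011, 0.023, 0.023 and 0.076. Restricted fits without 1 library, chosen after seeing the data, gave Cebpg 0.24, 0.029, 0.21 (without control libraries 1 to 3) and 0.15, 0.24, 0.10 (without fasted libraries 1 to 3), Irf8 0.24 without control library 2 and 0.32 without fasted library 3, and Cebpd 0.41 and 0.047 without control library 3 and fasted library 3. With 1 library left out the Spi1 to Gata1 difference ran from -0.93 to 0.21, turning to 0.21 without control library 3 and 0.19 without fasted library 3. The cause of these changes was not tested. Depth over background limits Cebpb, Gfi1, Cebpe after fasting and Cebpa in fasted library 3.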
